A study of Mus musculus with 6 samples.

Results

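Voltage-gated sodium and calcium channel genes were examined in the brains of mice that lack melanotransferrin. The members were all probe sets annotated to exactly 1 symbol that starts with Cacna, Cacnb, Cacng or Scn followed by a digit, with no filter on brightness. Each probe set reads 1 stretch of a transcript with several short probes. The rule found 35 genes of 18193 with a symbol of their own, read by 85 of 45037 probe sets. It used names only and no measured value.

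Brain RNA came from 6 female littermates aged 123 days, with 1 array per mouse. The knockout group held 4 mice, genotype MTf -/-, of the strain labelled C57BL/6 - Lucy. The wild-type group held 2 mice, genotype MTf +/+, of the strain C57BL/6. The labels give "brain" with no region and do not say how the deleted allele was made, and no treatment is named. The last word of the knockout strain's name is not explained, so genotype and any difference of strain cannot be told apart. The numbers 1 to 4 and 1 to 2 only name an array. The values are signals on a linear scale, scaled by the authors to a common level, and the design holds the comparison of knockout with wild type.

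Voltage-gated sodium channels open when a neuron depolarises and carry the rising phase of the action potential. Each is built from a large alpha subunit that forms the pore, encoded by an Scn gene ending in "a", and from small beta subunits that anchor it and set its gating. Voltage-gated calcium channels turn depolarisation into calcium entry, which releases transmitter, shapes firing and signals to the nucleus. Their pore is an alpha1 subunit (Cacna1), which alpha2delta (Cacna2d) and beta (Cacnb) subunits carry to the membrane. The gamma genes (Cacng) take their name from a subunit of the muscle channel, but several of them, with Cacng2 as the founder, are known as the TARPs that carry AMPA-type glutamate receptors to the synapse. Scn7a, although named as a sodium channel, is known as a sodium-level sensor rather than a voltage-gated pore.

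A pair of arrays stood apart and touches the results below. Wild type 1 had 24.5% of its probe sets below 49.6, the offset added before log2, against 17.6% to 20.2% on the other 5 arrays. Its ratio of 3′ to 5′ Gapdh control signal was 1.05 against 0.826 to 0.909. In knockout 2 the cerebellar genes Pcp2 and Gabra6 read 185.8 and 87.6, while no other array was below 22260 and 6938. Meltf, the melanotransferrin gene, averaged 113.4 ± 37 (SD, n = 4) for knockouts and 187.6 ± 58.1 (SD, n = 2) for wild types, with overlapping groups. Its probe set cannot check the labels, since where its probes lie relative to the deletion is not stated. Neuronal marker genes summed to between 212104 and 256878 on every array, and 10 of 10 lay above the dim line, defined below.

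The signals of the 35 genes ran from the 98.1 percentile of all probe sets, for Scn2a, to the 11.1, for Cacna1s. The brightest probe set of each gene stands for it here. The order below is an order of signals, and because probe sets differ in how well they bind, it is not an order of transcript amounts. The dim line is the level below which the dimmest 40% of all probe sets lay, a signal of 142.8 on the scale used. It left 29 of the 35 genes above it, and 57 of the 85 probe sets, or 67.1%.

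Among the sodium channel alpha genes, Scn2a, the channel of axon initial segments and unmyelinated axons, had the highest signal of all 35 genes. It read 12960, 13974, 12827 and 15710 in knockouts 1 to 4, beside 16571 and 14024 in wild types 1 and 2, at the 98.1 percentile of all probe sets. Scn8a, the main alpha subunit of mature nodes of Ranvier, read 7150 to 9788 over the 6 arrays. Scn1a, the alpha subunit of fast-spiking inhibitory neurons, read 3639 to 6023. Scn3a, known mainly from the embryonic brain, was lower at 869.1 to 1364. The sensor gene Scn7a read 136.8 to 384.1. Scn9a, Scn10a and Scn11a, the channels of peripheral pain-sensing neurons, lay at the 31.1, 19.8 and 38.1 percentiles, below the dim line. Signals of those 3 on single arrays ran from 5.9 to 212.4, with no array or group standing above the rest for all of them.

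The sodium channel beta genes were all bright. Scn2b read 7488 to 11861, Scn3b 4314 to 6697 and Scn4b 4167 to 6518. Scn4b, the beta subunit linked to resurgent sodium current and rich in the striatum, was highest in knockouts 3 and 2, at 6518 and 6396, and lowest in knockout 1, at 4167. The 8 measured striatal marker genes had a mean log2 level, relative to the mean of the arrays, of 0.49 in knockout 2, 0.30 in knockout 3 and -0.30 in knockout 1. Knockout 4 did not pair the same way, with Scn4b at 5891 and the marker level at -0.29. Whether the amount of striatum sampled plays a part in the Scn4b values was not tested. In bulk tissue, fewer cells of a type and less RNA per cell cannot be told apart.

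Among the pore-forming calcium channel genes, Cacna1e, the R-type subunit, had the highest signal, 2920 to 5224. Cacna1b, the N-type subunit of presynaptic terminals, read 1512 to 2118. The L-type genes Cacna1c and Cacna1d read 980.0 to 1173 and 566.1 to 947.1. The T-type genes Cacna1g and Cacna1h, which drive burst firing, read 671.9 to 1063 and 624.2 to 1150. Cacna1a, the P/Q-type subunit that drives transmitter release and is rich in Purkinje cells, read 469.5 to 869.7. Cacna1f, the retinal L-type gene, stood just above the dim line at 81.7 to 303.1, and Cacna1s, of skeletal muscle, was the dimmest of the 35 at 11.1 to 62.7.

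Of the accessory subunits, Cacnb4, whose loss causes the lethargic mouse, came second after Scn2a. It read 12438, 12037, 11696 and 10208 in knockouts 1 to 4, beside 8608 and 11308 in the wild types. The other beta subunits were lower, with 856.9 to 1758 for Cacnb1 and 582.9 to 997.7 for Cacnb2. The alpha2delta genes Cacna2d1, the target of gabapentin, and Cacna2d3 read 3978 to 6268 and 3842 to 5581. Cacna2d2, the gene of the ducky mouse, read 1940 to 2906. Cacna2d4, known from the retina, read 175.6 to 331.2.

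Of the gamma genes, the TARP gene Cacng2 (stargazin) was brightest at 2404 to 3165, followed by Cacng4 at 959.0 to 1272, Cacng3 at 668.4 to 1552, Cacng5 at 729.8 to 1201 and Cacng7 at 410.7 to 888.6. Cacng8, a hippocampal TARP, read 122.9 to 304.1. Cacng6 and Cacng1, the latter of the skeletal muscle channel, were dim, at 98.8 to 218.8 and 12.9 to 129.7. Between neighbours in the order of all 35 genes the ranges over the 6 arrays overlapped in 31 of 34 cases. The 3 gaps lay below Scn2a, between Scn8a and Scn4b, and between Cacng7 and Cacna2d4.

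**Figure D1:**
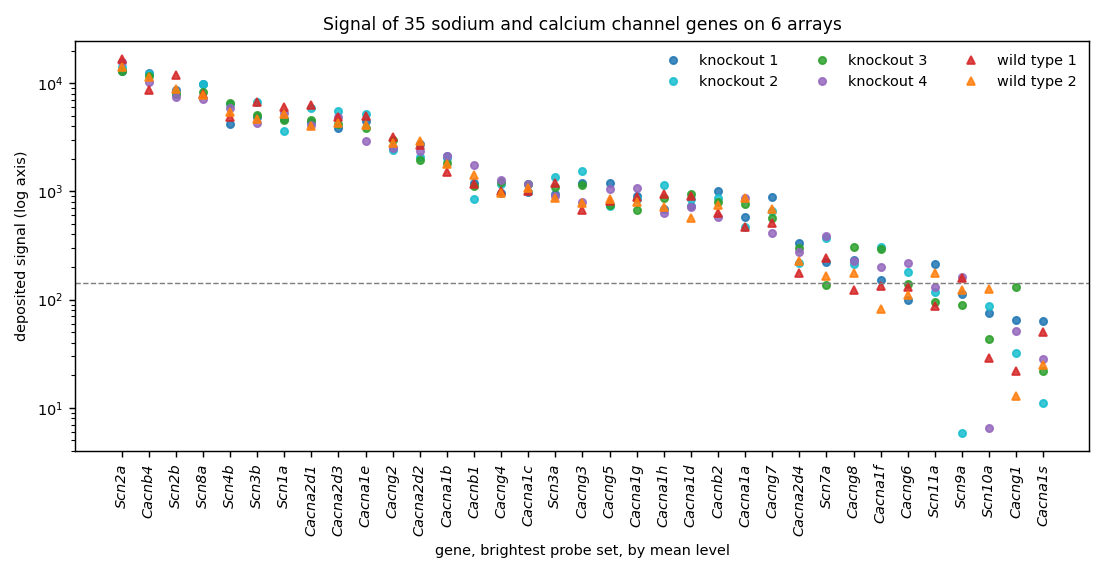
Deposited signal (vertical log axis) of the brightest probe set of each of the 35 genes (horizontal axis, in order of mean level) on each of the 6 arrays; circles are knockouts, triangles wild types, and the dashed line is the dim line at 142.8. Scn2a sits highest, between 12827 and 16571, Cacna1s lowest, between 11.1 and 62.7, and knockouts and wild types are mixed for most genes.

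Many members lie side by side on the chromosomes, and some neighbours differed in level while others did not. On chromosome 2 the order in the gene table of assembly GRCm38.p6 was Scn3a, Scn2a, Scn1a, Scn9a and Scn7a, with 3 other protein-coding genes between Scn2a and Scn1a. This row held the brightest alpha gene, Scn2a, beside Scn3a at the 75.9 percentile, and Scn1a, at the 93.3 percentile, beside Scn9a below the dim line. Cacng1, Cacng4 and Cacng5 adjoin on chromosome 11, where Cacng4 and Cacng5 had overlapping ranges and Cacng1 was dim. Cacng7, Cacng8 and Cacng6 adjoin on chromosome 7. On chromosome 9 Scn2b adjoins Scn4b, both bright, and Scn10a adjoins Scn11a, both dim.

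The promoters of the adjacent pair Scn2b and Scn4b are shown because both genes gave bright signals while their start regions differ widely in base composition. Each runs from 250 bases before the start to 50 after it, 5′ to 3′ on the plus strand, from RefSeq on GRCm38.p6, at chr9:45117626-45117925 for Scn2b and chr9:45138374-45138673 for Scn4b. Capitals mark the CG dinucleotides, the sites of DNA methylation.
Scn2b: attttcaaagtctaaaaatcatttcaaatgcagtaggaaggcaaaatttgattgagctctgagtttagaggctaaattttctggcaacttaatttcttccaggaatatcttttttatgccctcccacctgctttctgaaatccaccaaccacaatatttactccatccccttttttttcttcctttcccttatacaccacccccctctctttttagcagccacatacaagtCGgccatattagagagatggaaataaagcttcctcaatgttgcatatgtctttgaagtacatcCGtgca
Scn4b: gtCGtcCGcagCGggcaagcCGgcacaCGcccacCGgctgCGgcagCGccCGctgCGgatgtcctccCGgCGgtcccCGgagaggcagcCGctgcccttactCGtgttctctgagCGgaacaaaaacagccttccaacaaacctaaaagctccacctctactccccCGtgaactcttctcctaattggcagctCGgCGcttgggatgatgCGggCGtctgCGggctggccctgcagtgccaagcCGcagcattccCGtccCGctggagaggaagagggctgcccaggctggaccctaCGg

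The Scn2b window holds 2 CG dinucleotides and is 38.3% G or C, and the Scn4b window holds 26 and is 66.3% G or C. Of the 35 genes 27 had an entry in the promoter table, with 37 windows that held 2 to 63 CG dinucleotides. Their median was 9, beside 7 over all 32851 windows of the same length. The GC box GGGCGG, searched on both strands, was present in 14 of the 37, or 37.8%, and in 35.7% of all windows. The TATA box TATAAA, searched the same way, was present in 2 of the 37, at 1 start each of Cacna1d and Scn2a, and in 13.6% of all. The arrays do not measure which start a transcript used.

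No member differed between knockout and wild type after correction. The log2 fold change, knockout minus wild type, was fitted with limma over all 45037 probe sets, and p-values were adjusted by Benjamini-Hochberg over the same set with a threshold of 0.05. None of the 85 passed, with a smallest adjusted p of 0.738, and none did over the whole table (0%). At an unadjusted p below 0.05 there were 8 members, or 9.41%, beside 6.76% of all probe sets. Of these 6 were higher in the knockout, beside 4.92% of all, and 2 were lower, beside 1.84% of all.

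Over the 85 probe sets 59 had a log2 fold change above 0, or 69.4%, beside 60.3% of all probe sets. The median was 0.15 for the members and 0.078 for all. The size and sign of these values moved with scaling: centring each array on its median moved the median of all probe sets to -0.14 and that of the members to -0.067, with 34 of the 85 above 0 and 1 of 6 small p-values on the higher side. Quantile normalisation gave a median of 0.11 for the members, with 51 of the 85 above 0, and -0.0071 for all probe sets. The share of 60.3% belongs to the main fit, and the counts above 0 from other fits cannot be set beside it. Without wild type 1 the medians were 0.077 and 0.018, with 54 of the 85 above 0, and 1 member had an unadjusted p below 0.05, beside 3.61% of all probe sets in that fit. Without knockout 2 there were 4 such members, beside 6.04% of all probe sets, and without knockout 3 there were 5, beside 5.78%.

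By role, the median log2 fold change was 0.15 for the 24 probe sets of sodium alpha genes, 0.13 for the 6 of sodium beta genes and 0.024 for the 19 of calcium alpha1 genes. It was 0.22 for the 12 of alpha2delta genes, 0.19 for the 9 of calcium beta genes and 0.26 for the 15 of gamma genes. Unadjusted p-values below 0.05 came from 2, 3, 1, 0, 1 and 1 of these probe sets in the same order, beside 6.76% of all, and groups this small give no reading against that share. The values of the 4 knockouts and the 2 wild types did not overlap for 17 of the 85 probe sets, or 20%, beside 16.1% of all. In 14 of these the knockouts were higher (11.3% of all) and in 3 lower (4.81% of all).

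**Figure D2:**
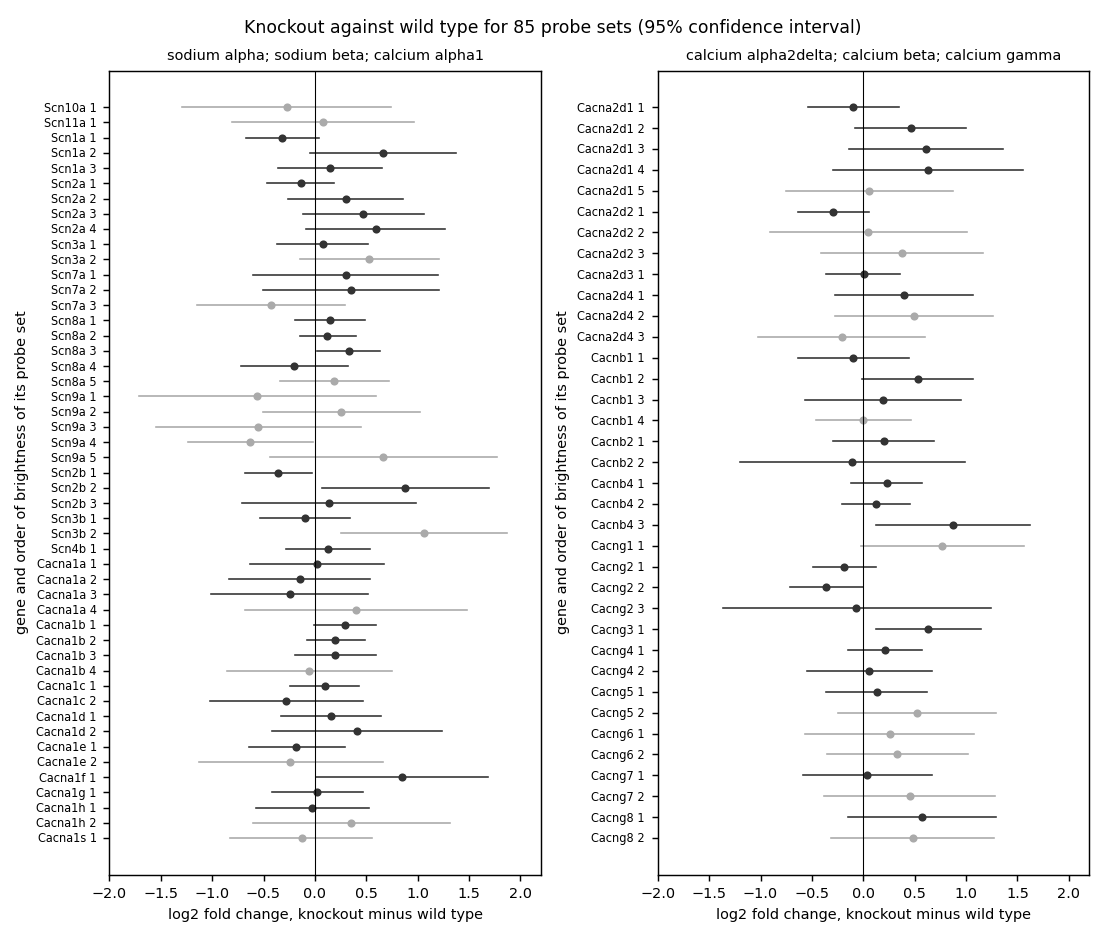
Log2 fold change, knockout minus wild type (horizontal axis), with its 95% confidence interval from limma for each of the 85 probe sets (vertical axis, gene and order of brightness of its probe set); black marks lie above the dim line and grey marks at or below it. Most intervals span 0, and the farthest points, Scn3b at 1.06 and Scn9a at -0.63, belong to dim probe sets.

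The smallest p on the higher side among members above the dim line belonged to Cacng3, a TARP of cortical neurons. It read 1197, 1552, 1152 and 803.4 in knockouts 1 to 4, beside 668.4 and 777.8 in wild types 1 and 2. All knockouts were above both wild types, by a margin that was narrow for knockout 4. The mean was 1176 ± 306.3 (SD, n = 4) against 723.1 ± 77.4 (SD, n = 2). On the log2 scale the difference was 0.63, standard error (SE) 0.23 (limma adjusted p = 0.738). The highest array, knockout 2, also had the highest level of the cortical and hippocampal marker list, 0.32, where the other 5 arrays lay from -0.17 to 0.0057. Other arrays did not pair the same way. The marker level was -0.025 in knockout 1 and -0.017 in wild type 1, where Cacng3 read 1197 and 668.4. It was lowest in knockout 4, at -0.17. The part of tissue make-up in the Cacng3 value was not tested. Without knockout 2 the log2 fold change was 0.49.

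Scn8a on the third of its probe sets by brightness read 1703, 1431, 1489 and 1616 in knockouts 1 to 4, beside 1205 and 1260 in wild types 1 and 2. Each knockout was above each wild type, and the log2 difference was 0.33, SE 0.14 (limma adjusted p = 0.738). Leaving out single arrays gave 0.28 to 0.36, and median centring 0.11. The other probe sets of Scn8a were 0.15, 0.12, -0.20 and 0.19 on the log2 scale, and all 4 had overlapping groups.

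Cacna1b had higher values in every knockout on both of its brightest probe sets. The brightest read 2118, 2035, 1821 and 2104 in knockouts 1 to 4, beside 1512 and 1777 in wild types 1 and 2, a log2 difference of 0.29, SE 0.14. The second read 1735 to 1955 in the knockouts and 1561 and 1609 in wild type, with a log2 fold change of 0.20. The third, also 0.20, had overlapping groups, and a dim one was at -0.059. The brightest was at 0.18 without wild type 1, 0.40 without wild type 2 and 0.076 after median centring. The adjusted p of the first 3 in limma ran from 0.743 to 0.823, so none passed.

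The retinal gene Cacna1f read 150.6, 303.1, 290.7 and 200.7 in knockouts 1 to 4 against 132.5 and 81.7 in wild types 1 and 2. The log2 difference was 0.85, SE 0.37 (limma adjusted p = 0.738). The groups did not overlap, and the signals lay near the dim line. Other members above the dim line with no overlap and higher knockouts were Cacnb1 on its second-brightest probe set, at 0.53, Cacng8 on its brightest, at 0.57, and Cacna2d1 and Scn2a on dimmer ones, at 0.61 and 0.59. The Cacna2d1 probe set read 115.7 in wild type 1 and 272.5 or more elsewhere, and leaving out wild type 1 or 2 gave 0.13 or 1.09. That of Cacng8 was 0.38 without wild type 1. The brightest probe sets of Cacnb1, Cacna2d1 and Scn2a were at -0.10, -0.10 and -0.14, while the next ones were at 0.46 for Cacna2d1 and at 0.30 and 0.47 for Scn2a, all with overlapping groups.

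Some dim probe sets had the farthest values, and the offset of 49.6 holds these down. A dim probe set of Scn3b read 64, 147.1, 151.9 and 95.9 in the knockouts and 25 and 29.1 in wild type, a log2 difference of 1.06 (SE 0.36, limma adjusted p = 0.738). The bright probe set of Scn3b was at -0.10, with means of 5243 ± 1021 (SD, n = 4) in knockouts and 5625 ± 1423 (SD, n = 2) in wild types. The muscle gene Cacng1 read 64.7, 32.4, 129.7 and 51 in the knockouts and 21.9 and 12.9 in wild type, a log2 fold change of 0.77. Its highest array, knockout 3, also had the highest sum of the 10 skeletal muscle markers, 3238 against 1923 to 2613 on the other arrays, and 7 of those 10 lay below the dim line. Knockout 1 did not pair the same way, with the second-highest Cacng1 signal, 64.7, and the lowest marker sum of the knockouts, 2266. The other skeletal muscle channel gene, Cacna1s, read 22.1 in knockout 3 and was highest in knockout 1, at 62.7. The part of muscle RNA in the Cacng1 value was not tested. A dim probe set of Scn9a went the other way, with 15.7 to 38.3 in the knockouts and 65.3 and 70.4 in wild type, at -0.63. The 5 probe sets of Scn9a, all dim, did not share a sign: the others were at -0.56, 0.25, -0.55 and 0.66, each with overlapping groups.

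On the lower side, the bright probe sets of Scn2b and Cacng2 had no overlap. Scn2b read 8610, 8021, 7919 and 7488 in knockouts 1 to 4, beside 11861 and 8853 in wild types 1 and 2, a log2 difference of -0.36, SE 0.15 (limma adjusted p = 0.738). Wild type 2 lay close above the highest knockout, and without wild type 1 the value was -0.15. Cacng2 on its second-brightest probe set read 1802, 1375, 1767 and 1935 in the knockouts and 2358 and 2049 in wild type, at -0.36 (limma adjusted p = 0.738), and at -0.26 without wild type 1 or without knockout 2. Its brightest probe set, with 2404 to 3011 against 3165 and 2783, was at -0.19. Scn1a, with 3639 to 5314 in the knockouts against 6023 and 5240, and Cacna2d2, with 1940 to 2762 against 2673 and 2906, were at -0.32 and -0.29 on their brightest probe sets, and both had overlapping groups. The dimmer probe sets of Scn1a were at 0.66 and 0.15, and the brightest was at -0.22 without wild type 1.

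Probe sets of 1 gene disagreed on array wild type 1. While the brightest probe set of Scn2b was highest there, its second-brightest read 2143 on that array, against 6373, 7711, 6941 and 8359 in knockouts 1 to 4 and 7235 in wild type 2. Wild type 2 lay within the knockout range and wild type 1 far below it. The log2 difference of 0.88 (SE 0.36, limma adjusted p = 0.738) was 0.014 without wild type 1. The gene thus had a member at -0.36 and another at 0.88, and both values shrank without this array.

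Probe sets of Cacnb4 and Scn1a were also low on wild type 1 alone. The third Cacnb4 probe set read 7054, 6517, 5424 and 4675 in knockouts 1 to 4, 1861 in wild type 1 and 5367 in wild type 2. The log2 difference was 0.87, SE 0.34 (limma adjusted p = 0.738), and 0.12 without wild type 1. The other Cacnb4 probe sets were at 0.23 and 0.12. With wild type 2 left out, these Scn2b and Cacnb4 probe sets passed in limma, with adjusted p of 0.012 and 0.0297, among 171 probe sets that passed over the whole table. That fit assumes that the lone array varies like the knockouts. Scn1a read 1122 in wild type 1 on its second probe set, against 2177 to 3332 on the other 5 arrays, while its brightest probe set was highest there, at 6023.

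The spread of probe sets within a gene was therefore taken for each array as the range of their log2 levels relative to the mean of the other arrays. It could be formed for the 15 member genes with at least 2 probe sets above the dim line. On wild type 1 the range was over 1 for 6 of the 15 genes, or 40%: Cacna2d1, Cacnb4, Cacng2, Scn1a, Scn2a and Scn2b. It was over 1 for 1 gene on each of the other 5 arrays. Over all 5889 genes with at least 2 such probe sets, the share on wild type 1 was 17.6%, and 4.35% to 10.4% on the others. A gene with more probe sets has more chance of a wide range, and no test was made of the members against other genes. The Gapdh ratio of 3′ to 5′ signal was highest on this array, as given above, but that of actin, 2.35, lay within the 1.83 to 2.75 of the others. The part of RNA quality in this pattern was not tested.

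**Figure D3:**
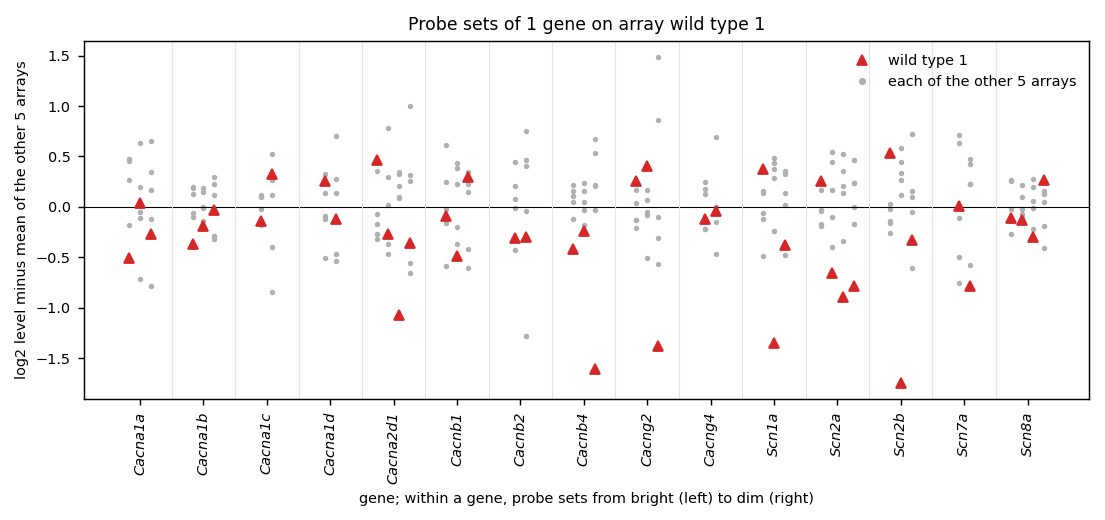
Log2 level of each probe set above the dim line on an array minus its mean on the other 5 arrays (vertical axis), for the 15 genes with at least 2 such probe sets (horizontal axis, bright to dim within a gene); red triangles are wild type 1 and grey points each other array. The triangles of Scn2b run from -1.74 to 0.54, and those of Scn1a, Cacnb4, Cacng2, Scn2a and Cacna2d1 also span more than 1.

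Cerebellar marker signal was far lower in knockout 2 than in the other knockouts, and the channel genes differed there by less. Against the mean of the other 3 knockouts, the 14 measured cerebellar markers were lower in knockout 2 in 14 of 14 cases. Their median log2 difference was -2.71 and the lowest -6.88, for Pcp2. The 57 channel probe sets above the dim line had a median difference of 0.12 and a range from -0.77 to 0.88. Over all probe sets above that line the median was -0.017. None of the 57 differed by more than 1, where 2.32% of all probe sets above that line did, and 16 were lower in knockout 2. These are values of 1 mouse and carry no test.

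Cacna1a had the lowest difference of the 57, -0.77 on the third of its probe sets. It was lowest in knockout 2 among the knockouts on that one and on its brightest: 469.5 against 582.6, 764.8 and 861.1, and 208.9 against 447.6, 399.2 and 331.3. On its second it read 383.2, between the 256.2 and 614.9 of other knockouts. On a dim probe set knockout 2 was the highest knockout, at 136.5 against 51.1, 131.6 and 27.6. Wild type 1, where Pcp2 read 22260, was near knockout 2 on the brightest Cacna1a probe set, at 472.3. Among the other genes the lowest difference was -0.61, for the brightest probe set of Cacnb1. Cacng2, the TARP of granule cells, read 1375 in knockout 2 on its second probe set against 1767 to 1935 in the other knockouts. Cacnb4, also rich in the cerebellum, read 12037 there, inside the 10208 to 12438 of the other knockouts. Cacng3, Cacng4, Cacna1h and Scn3b were highest in knockout 2 on their brightest or second probe set, at 1552, 793.0, 1150 and 6697.

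**Figure D4:**
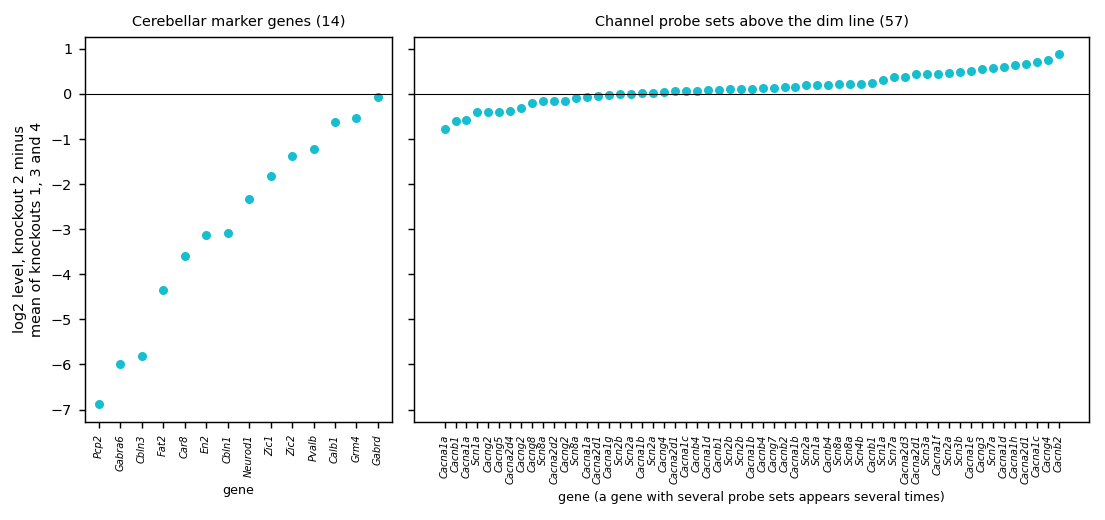
Log2 level in knockout 2 minus the mean of knockouts 1, 3 and 4 (vertical axis) for the 14 cerebellar markers (left) and the 57 channel probe sets above the dim line (right), each sorted by value along the horizontal axis. The markers reach down to -6.88, and the channel probe sets stay between -0.77 and 0.88.

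Genes whose products work with these channels were read on their brightest probe set, and 0 passed in limma over all probe sets. Beside the counts below stand 60.3% of all probe sets higher in the knockout and 6.76% at an unadjusted p below 0.05. Over all probe sets above the dim line, where most of these genes lay, the shares were 55.4% and 7.15%. Of 16 measured partners at the axon initial segment and node 10 were higher in the knockout and 6 lower, with 0 at an unadjusted p below 0.05 and a median log2 fold change of 0.11. Ank3, ankyrin-G, which anchors sodium channels there, read 20220 ± 820.0 (SD, n = 4) against 17047 ± 307.5 (SD, n = 2), at 0.24, and the matrix protein gene Tnr was at 0.34. Of 12 presynaptic partners 9 were higher, with a median of 0.15, Pclo, of the active zone, at 0.24 and the syntaxin gene Stx1a at 0.25.

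Among 11 calcium channel modulators 9 were higher, with a median of 0.10, and 2 had an unadjusted p below 0.05, beside the same 60.3% and 6.76% of all probe sets. They were Stac, whose family holds calcium channels at the membrane, and Rrad, a small GTPase that restrains them. Stac read 73.9, 174.6, 221.9 and 58.1 in the knockouts and 285.7 and 326.2 in wild type, at -1.07 (limma adjusted p = 0.738). The dim Rrad read 109.5, 100.9, 13.7 and 133.3 in the knockouts and 17.5 and 14 in wild type, at 0.98 with overlapping groups (limma adjusted p = 0.738).

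Of 12 genes of AMPA receptors and their other partners, with which the TARPs work, 5 were higher and 7 lower, with a median of -0.076. The receptor subunit Gria4 was at -0.38 and the scaffold Dlg4 at -0.26. Of 8 measured genes of related leak, two-pore and sperm cation channels 6 were higher, with a median of 0.16, Tpcn1 at 0.15 and the dim Unc79 at 0.17.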

How the data were processed

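Brain RNA of 6 mice was measured on an Affymetrix mouse expression array. Signal intensity values were deposited by the authors on a linear scale. GCOS 1.3 is the tool named, per the submitters' processing notes, which do not name a summary method or scaling target here. Every array had a trimmed mean of 1000.0 over its central 96% of signals. The table held 45101 probe sets, of which 64 controls were left out. Symbols came from the platform annotation, and the gene table of GRCm38.p6 changed 0 member symbols.

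An offset of 49.6 (percentile 20 of all signals) preceded log2, which understates fold changes of dim genes. All 45037 probe sets were fitted without covariates in limma 3.58.1 (R 4.3.3; lmFit, then eBayes with trend). Residual degrees of freedom were 4, and the prior added 5.91. The code was tested on simulated data. P-values are 2-sided and measure the spread between mice and arrays together. With 4 against 2 arrays, an exact permutation test cannot go below 0.0667, and the number of arrays limits the precision. Alternatives were quantile normalisation, median centring, an offset 4 times larger, a dim filter of 40%, and each array left out in turn.

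The members and lists were chosen with earlier results of these data known. Named were the brightest probe set of each gene, the 5 members with the smallest p in each direction, the 5 largest fold changes without overlap in each direction, genes with probe sets of opposite sign beyond 0.5, members beyond 1 in knockout 2 (0 met this), and 2 genes per partner list. Other probe sets of named genes, the genes on wild type 1 and those read in knockout 2 were chosen after their values were seen. Python 3.11.15 drew the plots.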

Additional observations from a re-analysis of the deposited data

Results flagged for a closer look

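Of 66 channel probe sets examined, 1 had a knockout array far from the other 3. Chance alone would mark about 1 in 20, so the count is below that rate and is not read as a result about the channels. The share over all probe sets under the same rule is not given. The probe set marked was the brightest of Cacna1c, the L-type calcium channel of neurons and heart. Knockout 1 read 980.0 against 1162, 1173 and 1169, so the gap to its nearest neighbour was 0.943 of the whole range, above Dixon's 95% critical value for 4 values. The range itself was small, and wild types 1 and 2, at 1006 and 1082, lay between knockout 1 and the others.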

How the results depend on the processing

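The count of members with an adjusted p below 0.05 was 0 under each scaling, offset and filter tried, and 0 to 2 with 1 array left out, the 2 arising without wild type 2 in a fit that assumes the lone wild type varies like the knockouts. The count at an unadjusted p below 0.05 was 7 after quantile normalisation, 6 after median centring and 8 with the larger offset. It was 6 of 57 with the dim filter, and 4 to 9 with 1 knockout left out. Over all probe sets the share at that p was 5.92% after quantile normalisation, 8.76% after median centring and 6.25% with the larger offset. It was 7.8% of those kept by the dim filter, and 5.78% to 6.72% with 1 knockout left out. The counts of 1 and 10 came from the fits without wild type 1 and without wild type 2, which leave 1 array in that group. The members' median log2 fold change was -0.067 after median centring and 0.077 to 0.23 with 1 array left out.

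On the brightest probe sets the sign turned after quantile normalisation for Cacna1a (-0.04), Cacng7 (-0.031) and Scn11a (-0.17). After median centring it turned for Cacna1a (-0.19), Cacna1c (-0.12), Cacna1d (-0.058), Cacna1g (-0.19), Cacna2d3 (-0.21), Cacnb2 (-0.014), Cacng4 (-0.0021), Cacng5 (-0.085), Cacng7 (-0.18), Scn11a (-0.14), Scn3a (-0.14), Scn4b (-0.083) and Scn8a (-0.063). That setting lowers all values, moving the median of all probe sets from 0.078 to -0.14.

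With 1 array left out, values ran from -0.39 to 0.43 for Cacna1a, -0.16 to 0.47 for Cacna1d, -0.073 to 0.14 for Cacna1g, -0.21 to 0.16 for Cacna1h and -0.35 to 0.077 for Cacna1s. They ran from -0.42 to 0.23 for Cacna2d1, -0.092 to 0.10 for Cacna2d3, -0.28 to 0.05 for Cacnb1 and -0.17 to 0.24 for Cacng7. For Scn10a, Scn11a, Scn3a and Scn3b they ran from -0.85 to 0.30, -0.28 to 0.43, -0.14 to 0.29 and -0.35 to 0.16. No paired analysis was possible because the replicate numbers only name arrays. The cause of these changes was not tested.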

Other observations

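Marker genes of other cells and regions differed on single arrays, and 0 of them passed in limma over all probe sets. Pituitary hormone genes summed to 11704 in knockout 3 and to 997.0 to 1706 on the other 5 arrays, and the 6 measured had a median log2 difference of 1.03. Endothelial and pericyte markers were lower in the knockout in 8 of 10 cases and higher in 2. Beside this, 60.3% of all probe sets, and 55.4% of those above the dim line, were higher. Their median log2 difference was -0.26, and they summed to 26318 in wild type 1 and 18404 to 20981 elsewhere. Their mean log2 level was 0.27 in wild type 1. In wild type 2 it was -0.11, inside the -0.19 to 0.053 of the knockouts. Oligodendrocyte precursor markers summed to 13877 in wild type 1 and 9526 to 10458 elsewhere.

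Astrocyte, oligodendrocyte and microglial markers had medians of -0.17, -0.11 and -0.058. Thalamic, choroid plexus, heart muscle, peripheral nerve and blood markers had 0.16, -0.24, 0.21, -0.32 and -0.17, with 7, 7, 6, 4 and 3 genes measured. Cerebellar, striatal, cortical and hippocampal, skeletal muscle and neuronal markers had -0.81 (knockout 2 included), 0.14, 0.10, 0.38 and 0.11.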
